A study of Mus musculus with 12 samples.

Results

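The transcripts of 10 genes of the Krüppel-like factor (KLF) family of zinc finger transcription factors were measured through RNA immunoprecipitation sequencing (RIP-seq) of the m6A reader YTHDF2 in tumor-infiltrating CD11b+ myeloid cells. They were Klf2, Klf3, Klf4, Klf6, Klf7, Klf9, Klf10, Klf11, Klf13 and Klf16, matched by symbol, and they are 10 of the 17 genes named Klf and a number among the 54446 genes of the count files. The 10 genes were chosen with their values in these libraries known, so the values of every comparison between groups are a description and no test of the family. All 10 passed the filter on low counts in every comparison. The cells came from MC38 colon carcinoma tumors, grown in WT mice that carry the floxed Ythdf2 allele (f/f) without Cre and were 8 to 10 weeks old and of both sexes. Tumors were either left unirradiated (Ctrl) or given a single 20 Gy dose of ionizing radiation (IR), with cells sorted 3 days later. Each of the 3 replicates of a condition was a pool of 5 mice, called a technical replicate by the study, and each pool gave an Input library (RNA of the whole lysate) and a YTHDF2 IP library (RNA recovered with an anti-YTHDF2 antibody). The spread between pools is therefore the spread between pooled samples and not between single animals, and no mock IP was analysed here.

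KLF proteins bind GC-rich and CACCC elements through C-terminal zinc fingers, and the N-terminus decides whether a member activates or represses. Klf2, Klf4, Klf6 and Klf7 are mostly described as activators, with Klf2 known for holding myeloid cells in a quiescent state, Klf4 for monocyte differentiation and macrophage polarization, and Klf6 for inflammatory gene expression in macrophages. Klf3 recruits the corepressor CtBP, whereas Klf9, Klf10, Klf11, Klf13 and Klf16 recruit the Sin3 and histone deacetylase complex. YTHDF2 binds mRNA that carries N6-methyladenosine (m6A) and brings it to the CCR4-NOT deadenylase, and many m6A sites lie near stop codons in the sequence GGACT. Transcripts of immediate early regulators such as Klf2, Klf4, Klf6 and Klf10 are known for fast turnover.

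All 10 transcripts held at least 1 GGACT, counted in 1 annotated protein-coding transcript per gene. The window of 21 bases around the GGACT nearest the stop codon is shown for each gene, in transcript direction with the motif in capitals, because GGACT is the commonest form of the m6A consensus. A match is a description of the sequence and not a measured m6A site.

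Klf13: atcccacaGGACTgatggtgg
Klf9: gcctacatGGACTtcgtggct
Klf7: agagggctGGACTtcaggcgg
Klf2: aacgtgttGGACTtcatcctc
Klf4: acatgcccGGACTtacaaaat
Klf6: gtgaccccGGACTcaccactg
Klf10: cacattggGGACTttgttttt
Klf3: accacagaGGACTgactatta
Klf11: ccaccgcaGGACTcacacggg
Klf16: cagcaaggGGACTgagaatgg

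The windows of Klf13 (chr7:63890558-63890578, minus strand), Klf7 (chr1:64035566-64035586, minus), Klf4 (chr4:55527794-55527814, minus), Klf6 (chr13:5867487-5867507, plus), Klf10 (chr15:38295593-38295613, minus) and Klf16 (chr10:80568780-80568800, minus) lay in the 3′ UTR in build mm10. In these 6 genes the A of the motif was 131 (Klf16) to 940 (Klf13) bases past the last base of the stop codon. The windows of Klf9 (chr19:23141767-23141787, plus), Klf2 (chr8:72319477-72319497, plus), Klf3 (chr5:64822946-64822966, plus) and Klf11 (chr12:24660253-24660273, plus) lay in the coding sequence, 712, 931, 416 and 200 bases before that position. Klf9, Klf2 and Klf11 thus shared the position of their nearest motif with Klf3, although Klf9 and Klf2 were among the transcripts with the highest IP over Input and Klf3 and Klf11 were not.

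Counts assigned to genes ranged from 34445784 to 40008607 per library in the Ctrl Input, from 37940948 to 42382532 in the IR Input, from 28919897 to 33882664 in the Ctrl IP and from 27852948 to 30244160 in the IR IP. Reads on no annotated gene were 26.9% to 27.0% of reads on or off genes in the Ctrl Input, 24.6% to 24.8% in the IR Input, 41.8% to 42.7% in the Ctrl IP and 49.4% to 54.1% in the IR IP, so this share differed between the IP groups, and its part in the results was not tested. Marker levels are in CPM, that is counts scaled to a common library total after TMM adjustment over the 12 libraries. The 5 myeloid markers of the sorted population summed to 4180 to 4277 CPM in the Ctrl Input and 5128 to 5228 in the IR Input. Mean levels of Itgam (962 against 1752), Lyz2 (2516 against 2636) and Spi1 (385 against 432) were higher in the IR Input. Those of Ptprc (347 against 329) and Adgre1 (32.0 against 28.6) were lower. The 6 neutrophil markers summed to 5829 to 6642 CPM in the Ctrl Input and 8299 to 8947 in the IR Input. The 5 macrophage markers summed to 168 to 174 CPM in the Ctrl Input and 143 to 146 in the IR Input, where mean levels of Mrc1 (126 against 96.8) and Apoe (29.0 against 24.0) were lower and those of C1qa, C1qb and C1qc were higher. The 5 epithelial markers of tumor cells summed to 122 to 129 and 93.1 to 98.0 CPM, of which Cdh1 made up nearly all (mean 121 against 90.1), while Epcam was higher in IR (4.72 against 6.04) and Krt8, Krt18 and Krt19 were near or at 0. The 5 T cell and 5 erythroid markers each stayed under 2 CPM in all Input libraries.

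The KLF transcripts differed widely in level in the Input. Levels are given as CPM on a TMM scale set over the 12 libraries, and between genes as CPM per kb of exon sequence. In the Ctrl Input the order was Klf6 at 111 ± 0.90 CPM per kb (SD, n = 3), Klf4 at 75.7 ± 5.08, Klf2 at 53.7 ± 1.69, Klf13 at 33.0 ± 0.80, Klf7 at 19.3 ± 0.75, Klf10 at 11.4 ± 0.58, Klf9 at 6.41 ± 0.078, Klf16 at 5.59 ± 0.60, Klf3 at 3.95 ± 0.13 and Klf11 at 0.93 ± 0.095. The ranges of neighbours in this order did not overlap. In the IR Input the order was the same, and the ranges of Klf16 and Klf3 overlapped. The 4 transcripts with the highest level were thus 3 of the activators and Klf13, and the Sin3-binding Klf11 was lowest. The exon sequence of Klf3 spans 11243 bases over all its annotated transcripts against 5221 in the single transcript used for motifs. This lowers its value per kb, so its rank depends on the length used. In CPM without length, the mean of Klf3 in the Ctrl Input (44.4) lay above those of Klf9 (30.9) and Klf16 (14.9). In bulk libraries such as these, fewer cells of a type and less RNA per cell cannot be told apart.

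**Figure D1:**
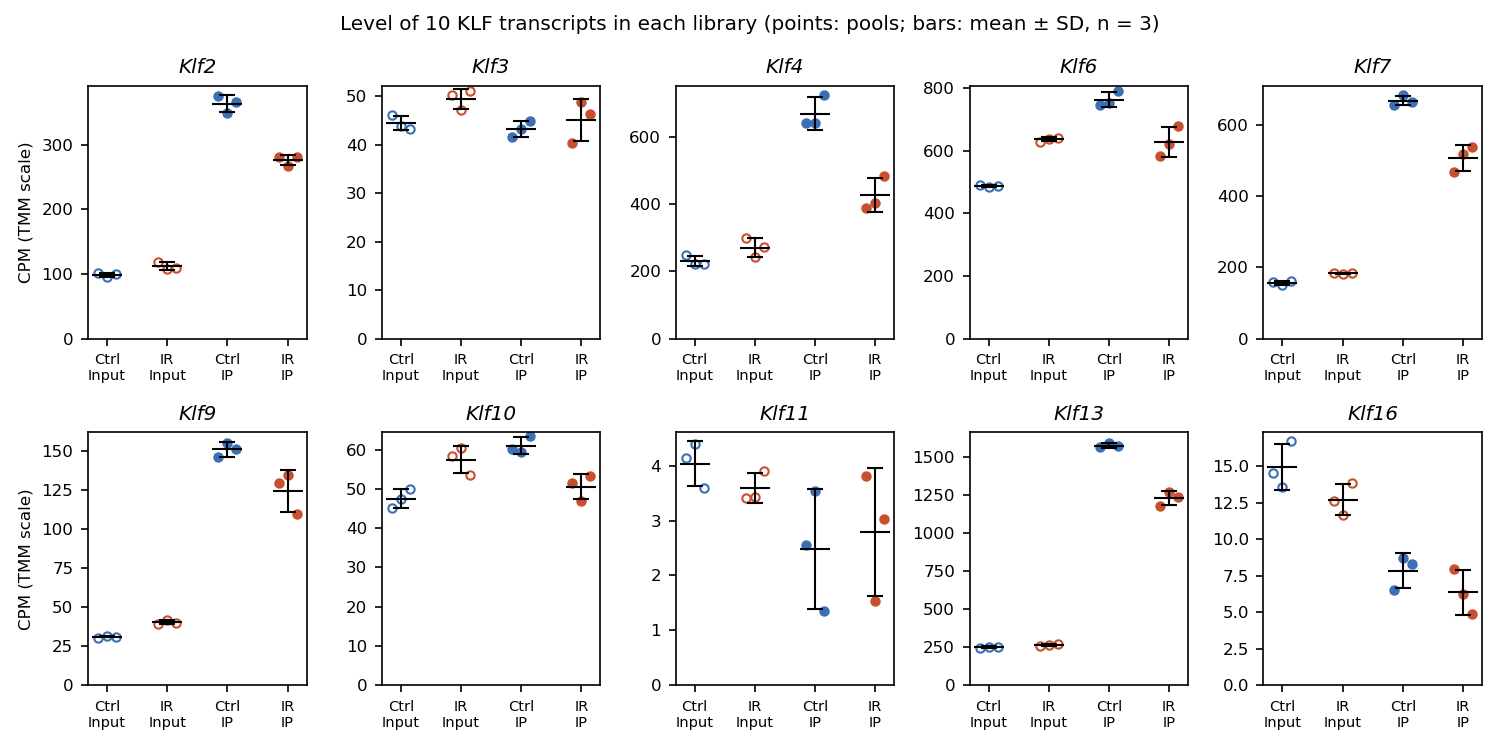
Level of each of the 10 KLF transcripts in the 12 libraries, in CPM on the TMM scale with axes from 0. Points are the 3 pools of each group (blue Ctrl, orange IR, open Input, filled IP) and bars the mean ± SD. Klf2, Klf4, Klf7, Klf9 and Klf13 were higher in both IP groups than in either Input group, Klf6 and Klf10 were higher in the IP in Ctrl but not in IR, and Klf16 was lower in the IP in both.

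In unirradiated tumors the activators were recovered with YTHDF2 to different extents. Klf7 stood at 159, 149.6 and 161 CPM in the 3 Ctrl Input pools and at 658, 684 and 667 in the Ctrl IP. Klf2 stood at 102, 95.8 and 99.6 CPM in the Input and at 375, 349 and 367 in the IP. Klf4 stood at 249, 223 and 221 CPM in the Input and at 642, 639.7 and 725 in the IP. For all 3 genes each IP pool lay far above each Input pool, and 32.4% of all tested genes had every IP pool above every Input pool. The log2 ratio of IP to Input from the fit was 2.22 (SE 0.042) for Klf7, 2.0 (SE 0.047) for Klf2 and 1.66 (SE 0.057) for Klf4, or 4.65-fold, 3.99-fold and 3.15-fold. Klf6, the most abundant of the 10 in the Input, stood at 492, 484 and 486 CPM there and at 746, 752 and 791 in the IP, a log2 ratio of 0.77 (SE 0.037). The closest relative of Klf6 in the family is Klf7, and the IP over Input of Klf7 was thus the larger. Reads of Klf7 could include some of the long noncoding RNA Gm26649, which shares 3196 exon bases with it on the opposite strand and held 1608 counts of its own over all libraries.

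The Sin3-binding members covered the whole range. Klf13, known as a late activator of Ccl5 in lymphocytes, stood at 242, 253 and 251 CPM in the Ctrl Input and at 1565, 1596 and 1572 in the Ctrl IP, a log2 ratio of 2.79 (SE 0.035). This was 6.90-fold, the largest of the 10, and 3.82% of the 17416 tested genes had a larger ratio. Klf9, a target of the glucocorticoid receptor, stood at 30.4, 31.2 and 30.9 CPM in the Input and at 146, 155 and 151 in the IP, a log2 ratio of 2.41 (SE 0.055) and the second in size. Klf10, induced early by TGF-β, stood at 45.1, 47.6 and 49.96 CPM in the Input and at 60.2, 59.4 and 63.5 in the IP, a log2 ratio of 0.48 (SE 0.066). Its groups did not overlap, as for 32.4% of tested genes in that direction, but the ratio was 1.40-fold against 5.32-fold for Klf9. Klf16 lay the other way, at 14.5, 13.6 and 16.7 CPM in the Input and at 6.48, 8.73 and 8.32 in the IP, a log2 ratio of -0.81 (SE 0.15). Klf11, a second TGF-β-inducible member, had 143 to 167 counts per Input library and 37 to 114 per IP library and a log2 ratio of -0.57 (SE 0.30), which did not pass the threshold. All 3 of its IP pools (2.56, 3.53 and 1.36 CPM) were below its Input pools (4.14, 4.39 and 3.59), as for 40.9% of all tested genes.

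The CtBP-binding Klf3 showed no separation, at 46.1, 43.9 and 43.4 CPM in the Input and 41.6, 43.3 and 45.02 in the IP, with a log2 ratio of 0.083 (SE 0.072). Among the 10, 7 were thus past the adjusted threshold of 0.05 in the higher direction in Ctrl and 1, Klf16, in the lower direction. Of all 17416 tested genes, 34.1% were called higher and 34.6% lower. The median log2 ratio was 1.21 over the 10 genes and 0.018 over all tested genes. Since the genes were selected on this contrast, the difference from the background is no finding about the family.

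After IR the 5 genes with the highest ratios kept their order, at smaller ratios. Klf13 stood at 258, 264 and 270.3 CPM in the IR Input and at 1180.1, 1273 and 1237 in the IR IP, a log2 ratio of 2.34 (SE 0.040). Klf9 stood at 39.4, 41.6 and 39.6 CPM in the Input and at 129, 134 and 109 in the IP, a log2 ratio of 1.75 (SE 0.086). Both stayed several-fold higher in every IP pool than in any Input pool, and 31.7% of all tested genes were higher in every IP pool. Klf7 stood at 186, 182 and 184 CPM in the Input and at 468, 520.2 and 539 in the IP (log2 ratio 1.59, SE 0.054). Klf2 stood at 119, 108 and 109 CPM in the Input and at 280.5, 267 and 281 in the IP (log2 ratio 1.43, SE 0.056). Klf4 stood at 298, 241 and 271 CPM in the Input and at 389, 404 and 483 in the IP (log2 ratio 0.78, SE 0.088). These 5 were past the threshold in the higher direction, as were 32.1% of all 18650 tested genes, and Klf16 was the 1 member past it in the lower direction (log2 ratio -0.87, SE 0.21), as were 30.4%.

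Klf6 and Klf10 no longer differed clearly between IP and Input after IR. Klf6 stood at 629, 638 and 641 CPM in the IR Input and 584, 621 and 678 in the IR IP, so that the groups overlapped, with a log2 ratio of 0.10 (SE 0.051). That ratio passed the threshold under 5 of the 8 other settings, at up to 0.25, and when any 1 IR IP library was left out. Klf10 stood at 58.3, 60.6 and 53.7 CPM in the Input and 51.4, 47.1 and 53.4 in the IP. All its IP pools were below all its Input pools on this scale, as for 38.1% of all tested genes, but overlapped with library size alone. Its log2 ratio was -0.061 (SE 0.087). For Klf3 the log2 ratio was -0.0087 (SE 0.091) and for Klf11 -0.24 (SE 0.37), and neither passed the threshold. The median of the 10 genes was 0.44, against 0.10 over all tested genes.

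The change of IP over Input with IR was fitted over all 12 libraries as the log2 ratio in IR minus that in Ctrl. Per pool, the log2 ratio of Klf4 was 1.37, 1.52 and 1.71 in Ctrl and 0.38, 0.74 and 0.84 in IR. That of Klf6 was 0.60, 0.64 and 0.70 in Ctrl and -0.11, -0.038 and 0.080 in IR. That of Klf9 was 2.26, 2.32 and 2.29 in Ctrl and 1.71, 1.69 and 1.47 in IR. In each of these genes every IR pool lay below every Ctrl pool, and the same was true of Klf2, Klf7, Klf10 and Klf13. This separation was seen in 27.7% of 16441 genes with counts in all libraries, and with library size alone in 10.1%, the same 7 KLF genes among them. The fitted change was -0.86 (SE 0.11) for Klf4, -0.64 (SE 0.063) for Klf6, -0.64 (SE 0.10) for Klf9, -0.60 (SE 0.067) for Klf7, -0.55 (SE 0.072) for Klf2, -0.52 (SE 0.11) for Klf10 and -0.42 (SE 0.048) for Klf13. These 7 genes are the 7 that were called higher in the Ctrl IP. All of them passed the threshold in the lower direction, where 13.9% of 20720 tested genes were called, and none of the 10 passed it in the higher direction, where 6.28% were called.

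Klf13, with the largest ratio in Ctrl, thus had the smallest change of the 7, and Klf4 the largest. Klf3 (-0.070, SE 0.12), Klf16 (-0.039, SE 0.26) and Klf11 (0.36, SE 0.49) did not pass the threshold, and for Klf11 the error was larger than the change. The median change was -0.53 over the 10 genes and -0.083 over all tested genes. Among all 5943 genes called higher in the Ctrl IP, 32.0% were called lower in the change with IR and the median change was -0.40. The 7 KLF genes had a median of -0.60. Both sets were picked for a high ratio in Ctrl, which is subtracted in the change. A lower change is thus partly built in, and these medians are no test of the KLF genes. With scaling by library size alone, the median change over all genes moved from -0.083 to 0.23, and the changes of Klf10 (-0.21) and Klf13 (-0.11) did not pass the threshold. The change stayed below 0 for all 7 under that scaling. The count of all genes called was 1301 higher and 2881 lower with TMM and 2862 higher and 877 lower with library size alone.

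**Figure D2:**
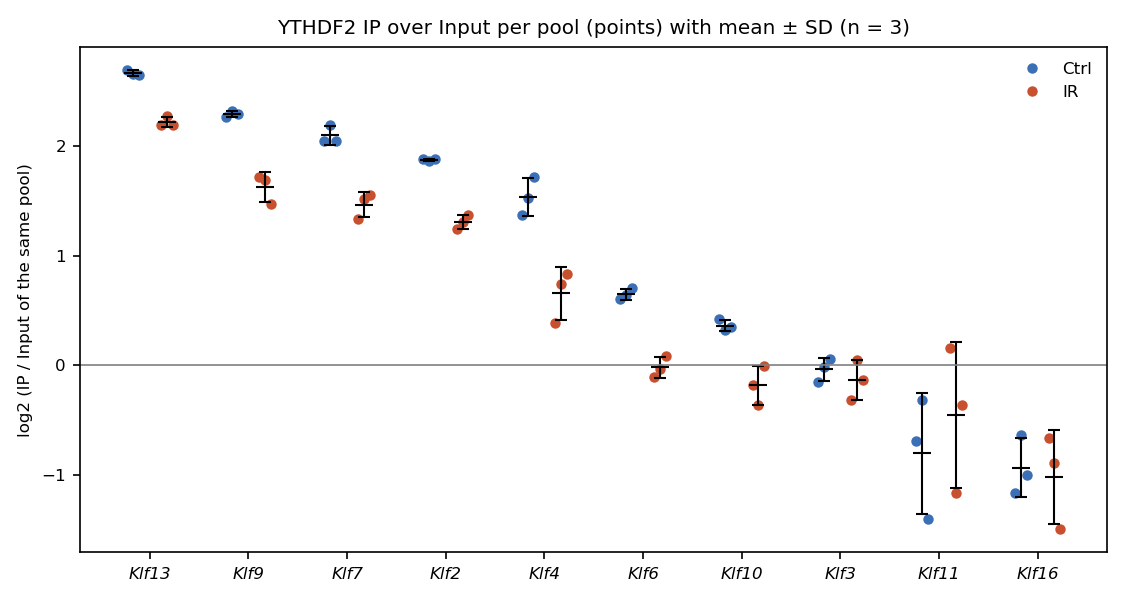
Log2 ratio of YTHDF2 IP to Input for each pool, in Ctrl (blue) and IR (orange), with the mean ± SD of 3 pools in black and the genes in the order of their Ctrl mean. Every IR pool lies below every Ctrl pool for Klf13, Klf9, Klf7, Klf2, Klf4, Klf6 and Klf10, and the 2 conditions overlap for Klf3, Klf11 and Klf16. Pool values use the scale of all 12 libraries and are about 0.1 below the fitted Ctrl ratios (2.67 against 2.79 for Klf13).

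The Input and the IP were then compared between IR and Ctrl separately. In the Input, Klf6 had the largest increase of the 10, from 492, 484 and 486 CPM in Ctrl to 629, 638 and 641 in IR, a log2 change of 0.31 (SE 0.029) or 1.24-fold. Klf9 changed by nearly the same factor at a far lower level, from 30.4, 31.2 and 30.9 CPM to 39.4, 41.6 and 39.6, a log2 change of 0.30 (SE 0.058). The groups were well apart for both. Klf10 (0.20, SE 0.054), Klf7 (0.15, SE 0.037) and Klf4 (0.15, SE 0.052) were also past the threshold in the higher direction, giving 5 of 10, against 21% of 16914 tested genes. The 3 Klf4 Input pools of IR (298, 241 and 271 CPM) overlapped with those of Ctrl (249, 223 and 221), and its call was lost with DESeq2 and without Ctrl Input replicate 2 (0.11), Ctrl Input replicate 3 (0.11) or IR Input replicate 1 (0.075).

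Klf16 was the 1 member lower in the IR Input (-0.31, SE 0.099), at 12.6, 11.7 and 13.8 CPM in IR against 14.5, 13.6 and 16.7 in Ctrl, a direction in which 23.9% of all genes were called. Its groups overlapped on the scale of 12 libraries, and its call was lost without Ctrl Input replicate 3 (-0.23) or IR Input replicate 2 (-0.26). Klf2 (0.097, SE 0.043), Klf3 (0.078, SE 0.053), Klf11 (-0.25, SE 0.17) and Klf13 (0.0084, SE 0.033) did not pass. Klf13, Klf2 and Klf3 lay higher in every IR Input pool than in any Ctrl Input pool on the scale of all 12 libraries. All 3 overlapped with library size alone as the scale (Klf13 at 242, 252 and 249.8 CPM in Ctrl and 239, 249 and 252 in IR). On that scale Klf16 lay lower in every IR Input pool, as did 28.4% of all tested genes. In all, 7 of the 10 lay wholly higher in the IR Input on the scale of 12 libraries, as did 32.5% of all tested genes, and 4 of the 10 with library size alone, as did 23.8%. The median log2 change over the 10 genes was 0.12, against 0.0072 over all genes. Beside these differences all 6 neutrophil markers had higher means in the IR Input. The myeloid, macrophage and epithelial markers were divided, as given above. The part of all these markers in the KLF levels was not tested.

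In the IP, Klf4, Klf6, Klf7 and Klf9 were called lower in IR, while their Input was called higher. Klf4 went from 642, 639.7 and 725 CPM in Ctrl to 389, 404 and 483 in IR, a log2 change of -0.62 (SE 0.071) or 1.54-fold lower. Klf2 (-0.36, SE 0.054), Klf7 (-0.36, SE 0.052), Klf13 (-0.33, SE 0.037), Klf6 (-0.25, SE 0.052) and Klf9 (-0.25, SE 0.080) were likewise past the threshold in the lower direction, giving 6 of 10, against 9.85% of 19255 tested genes. None of the 10 was called higher, against 6.12%. For these 6 genes and for Klf10, whose log2 change of -0.24 (SE 0.094) did not pass, every IR pool was below every Ctrl pool on the scale of 12 libraries, as for 19.2% of all tested genes. With library size alone Klf2, Klf4, Klf7 and Klf13 kept that separation, as did 8.34% of all genes, and Klf6, Klf9 and Klf10 overlapped. Klf3 (0.096, SE 0.11), Klf11 (0.20, SE 0.48) and Klf16 (-0.26, SE 0.26) had overlapping groups on the scale of 12 libraries. With library size alone Klf3 lay higher in every IR pool, as did 27.6% of all tested genes.

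The changes in the Input and in the IP differed in size between members. Klf13, Klf2 and Klf4 moved more in the IP (-0.33, -0.36 and -0.62 on the log2 scale) than in the Input (0.0084, 0.097 and 0.15). For Klf6 and Klf9 with TMM, the Input moved up by 0.31 and 0.30 and the IP down by 0.25 each. These values come from fits scaled separately and do not add up to the change of IP over Input. With library size alone, mean Klf6 levels went from 487 to 594 CPM in the Input and from 729 to 705 in the IP. Those of Klf9 went from 30.8 to 37.5 in the Input and from 144 to 140 in the IP, so the balance depended on the scale. The call of Klf9 in the IP was lost when any 1 Ctrl IP library was left out (-0.22 to -0.27) and without IR IP replicate 3 (-0.15), whose 109 CPM was the lowest of its group. With library size alone as the scale, Klf2 (-0.16), Klf6 (-0.044) and Klf9 (-0.040) did not pass in the IP, and the median over all genes moved from 0.062 to 0.27. The count of all genes called in the IP was 1179 higher and 1896 lower with TMM, and 2665 higher and 828 lower with library size alone.

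**Figure D3:**
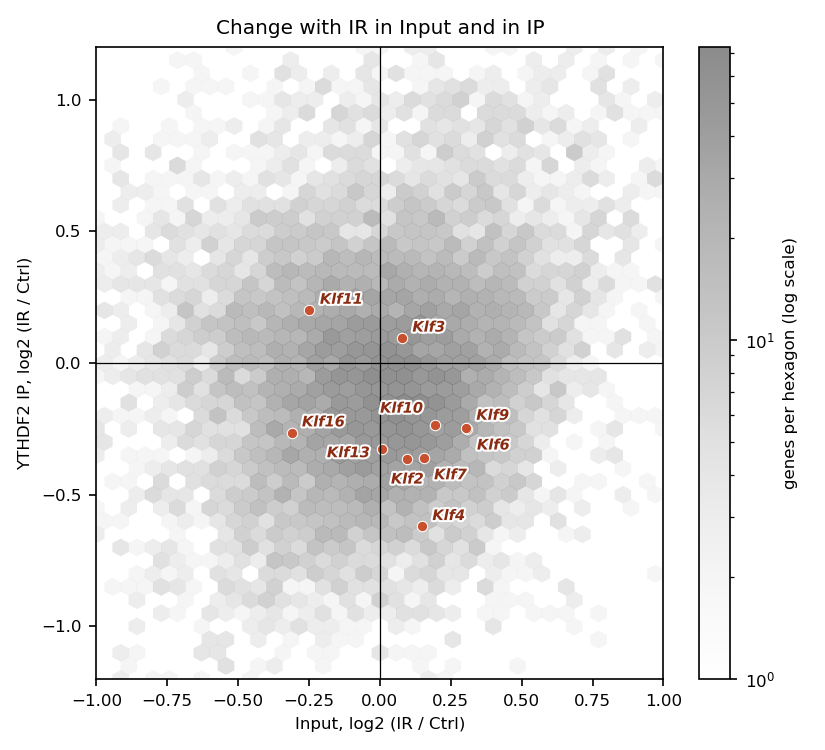
Log2 change from Ctrl to IR in the Input (x axis) and in the YTHDF2 IP (y axis), with the 10 KLF genes as labelled points over all genes tested in both (grey hexagons, darker for more genes, log scale of counts). Klf2, Klf4, Klf6, Klf7, Klf9, Klf10 and Klf13 lie at or to the right of 0 in the Input and below 0 in the IP, with Klf6 and Klf9 on top of each other, while Klf3, Klf11 and Klf16 lie elsewhere.

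Features of the transcripts were not used to choose the genes. All 10 have few exons (2 to 6, median 4, against a median of 9 over 12954 tested protein-coding genes). Coding sequences ran from 735 to 1509 bases (median 996 against 1368), with Klf4, Klf10 and Klf11 above the median of all genes. The 3′ UTRs ran from 737 to 6266 bases (median 2718 against 990.5), with Klf2 and Klf4 below the median of all genes. The GC content of the coding sequence ranged from 51.0% to 71.4% with a median of 57.9%, against 53.1%. GGACT occurred 1 to 9 times per transcript, with a median of 5 against 3, but per kb the medians were 1.15 and 1.06, and the median transcript length was 4156 against 2975 bases. The 3′ UTR held ATTTA, the core of AU-rich elements that mark short-lived mRNAs, 1 to 18 times, with a median of 4 against 1.

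Within the family, Klf13 (5157-base 3′ UTR, 7 GGACT, all in the 3′ UTR), Klf7 (6266 bases, 9 GGACT) and Klf9 (3222 bases, 5 GGACT) combined long 3′ UTRs with the highest ratios of IP to Input in Ctrl. Klf3 had a 3′ UTR of 3743 bases, longer than that of Klf9, but a single GGACT, in the coding sequence, and a log2 ratio of 0.083. Klf6 had a 3′ UTR of 3111 bases and 8 GGACT, more than Klf9, at a log2 ratio of 0.77. Klf11 had 2326 bases and 5 GGACT at a log2 ratio of -0.57. Klf2 went against any simple order, with the shortest 3′ UTR of the 10 (737 bases), a single GGACT and a log2 ratio of 2.0. Klf16 had 6 GGACT in 2674 bases, the highest density of the 10 at 2.24 per kb, and the lowest log2 ratio. Across the 10 genes the Spearman correlation of the Ctrl log2 ratio was 0.36 with 3′ UTR length, 0.45 with transcript length, 0.28 with the number of GGACT and -0.25 with GGACT per kb. Over all 12954 genes these values were 0.11, 0.25, 0.25 and 0.094. They are descriptions across genes of the same libraries, and at n = 10 they are weak.

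**Figure D4:**
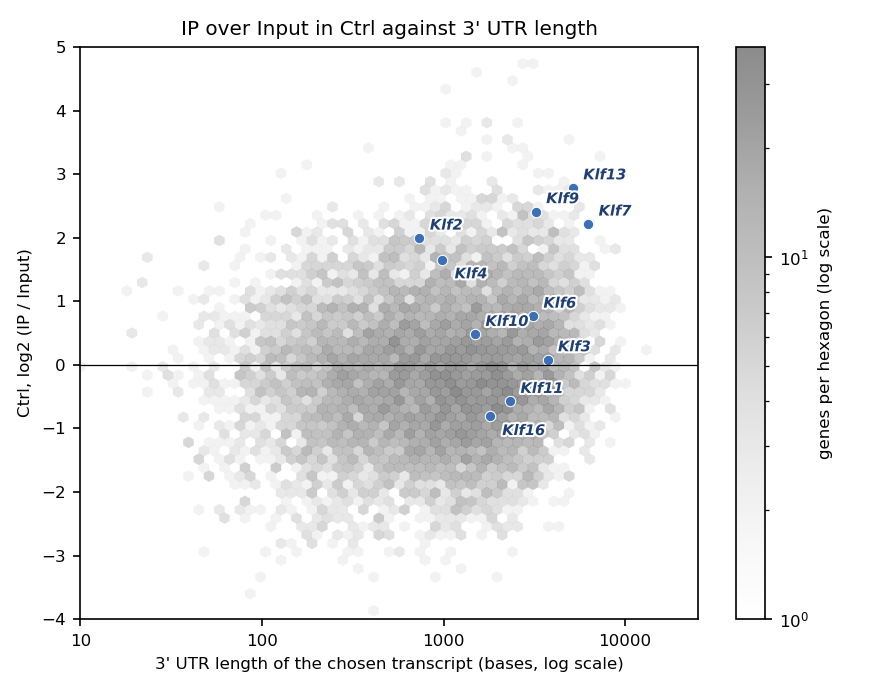
Log2 ratio of IP to Input in Ctrl against 3′ UTR length (bases, log scale) for the 10 KLF genes (labelled points) over all tested protein-coding genes (grey hexagons, darker for more genes, log scale of counts). Klf13, Klf9 and Klf7 lie at long 3′ UTRs and high ratios, Klf2 and Klf4 at short 3′ UTRs and high ratios, and Klf3 at a long 3′ UTR near 0.

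Promoters are shown for Klf4, the member with the largest lower IP in IR, and for Klf6 and Klf9, the members with the largest higher Input in IR. Each is the sequence from 250 bases before to 50 bases after the gene start, from RefSeq (GRCm38.p6), in transcript direction. Capitals mark GGGCGG, the GC box bound by SP and KLF proteins, and CACCC, on either strand, and matches that overlap or touch run together.

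Klf4: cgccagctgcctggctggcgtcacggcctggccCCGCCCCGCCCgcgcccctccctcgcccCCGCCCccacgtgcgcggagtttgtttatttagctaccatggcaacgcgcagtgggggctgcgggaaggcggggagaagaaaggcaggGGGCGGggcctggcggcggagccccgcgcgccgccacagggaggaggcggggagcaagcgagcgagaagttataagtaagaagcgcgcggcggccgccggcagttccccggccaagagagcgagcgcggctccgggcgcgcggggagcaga
Klf6: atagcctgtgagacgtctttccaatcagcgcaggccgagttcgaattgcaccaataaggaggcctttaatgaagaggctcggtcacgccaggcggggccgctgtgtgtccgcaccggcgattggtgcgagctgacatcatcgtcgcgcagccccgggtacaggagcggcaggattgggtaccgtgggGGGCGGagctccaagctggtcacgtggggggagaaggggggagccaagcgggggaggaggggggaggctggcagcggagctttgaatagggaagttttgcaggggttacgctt
Klf9: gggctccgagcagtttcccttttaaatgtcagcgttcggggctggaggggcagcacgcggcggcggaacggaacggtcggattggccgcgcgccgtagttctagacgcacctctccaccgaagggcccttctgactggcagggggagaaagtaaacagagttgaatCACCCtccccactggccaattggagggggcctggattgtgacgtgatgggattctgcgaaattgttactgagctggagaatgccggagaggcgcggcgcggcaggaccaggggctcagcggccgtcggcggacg

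The windows lie at chr4:55532426-55532725 (minus strand), chr13:5861239-5861538 (plus) and chr19:23140976-23141275 (plus). GGGCGG occurred in 7 of the 8 KLF promoters in the table (Klf9 held none), against 35.66% of 32851 promoters. CACCC occurred in 5 of 8, against 57.52%, and CCAAT in 4 of 8, against 37.41%. TATAAA and the cAMP response element TGACGTCA occurred in none of the 8, against 13.62% and 1.79%. CCAAT was held by Klf6 (4 times), Klf9 (3), Klf13 (2) and Klf11 (2). The Input levels of Klf6 and Klf9 were called higher in IR, and those of Klf13 (0.0084) and Klf11 (-0.25) were not called. Klf6 and Klf9 differed in GGGCGG, and Klf4 held 4 GGGCGG and no CCAAT. A link between these motifs and the levels was not tested. No match says only that these letters are not in this window.

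Of the other 7 KLF genes, Klf5 was the nearest in level to the members, at 39.1 ± 0.63 CPM in the Ctrl Input (SD, n = 3) and 56.7 ± 3.30 in the Ctrl IP. It is best known from epithelial and smooth muscle cells. Its log2 ratio of IP to Input was 0.66 (SE 0.070, adjusted p = 2.04e-07, edgeR) in Ctrl and 0.36 (SE 0.084, adjusted p = 0.0035, edgeR) in IR. Of all genes, 34.1% were called higher in the Ctrl IP and 32.1% in the IR IP. The change of the Klf5 ratio with IR was -0.28 (SE 0.11, adjusted p = 0.080, edgeR) and did not pass. Klf8, a CtBP-binding member like Klf3, had 108 to 119 counts per Ctrl Input library and 25 to 56 per Ctrl IP library. It was called lower in the Ctrl IP (log2 ratio -1.03, SE 0.35, adjusted p = 0.014, edgeR), as were 34.6% of all genes. In IR, with 13 to 113 counts per IP library, its log2 ratio of -0.81 (SE 0.61) did not pass. Klf12, the third CtBP-binding member, had 3 to 23 counts per library and passed in no comparison. Klf1, the erythroid KLF, had 0 to 14 counts per library, Klf15 0 to 16, Klf17 0 to 6, and Klf14 0 in all 12, which allows up to 3 counts per library.

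The SP genes share the zinc fingers and the GC box with the KLF family. Of 9 SP genes 6 could be tested, and in Ctrl 4 of them were called lower in the IP than in the Input (34.6% of all genes) and none higher, with Sp4 (-1.14, SE 0.24) and Sp1 (-0.76, SE 0.085) lowest. With IR the ratio of 3 was called higher (6.28% of all genes), Sp4 by 1.196 (SE 0.39, adjusted p = 0.036, edgeR), Sp1 by 0.90 (SE 0.13, adjusted p = 3.07e-05) and Sp3 by 0.65 (SE 0.12, adjusted p = 5.91e-04). In the Input 3 were called lower in IR (23.9% of all genes), among them Sp1 (-0.49, SE 0.054) and Sp3 (-0.48, SE 0.057), and in the IP Sp1 alone was called, in the higher direction (0.51, SE 0.12), as were 6.12% of all genes. In IR, Sp3 was the 1 SP gene called higher in the IP than in the Input (0.42, SE 0.087), as were 32.1% of all genes. Sp6 and Sp9, both with few counts, had Ctrl log2 ratios of 0.20 (SE 0.80) and 1.53 (SE 0.74) that did not pass. The median change of IP over Input with IR was 0.69 over the 6, against -0.083 over all genes.

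Cofactors and turnover factors of KLF proteins were divided. Of 11 tested, 3 were called higher and 5 lower in the Ctrl IP, where 34.1% and 34.6% of all genes were called, led by Fbxw7, the substrate receptor of a ubiquitin ligase that acts on KLF proteins (log2 ratio 2.94, SE 0.047), and the acetyltransferase Crebbp (2.31, SE 0.035). In IR, 4 were called higher and 5 lower (32.1% and 30.4% of all genes), with Fbxw7 at 2.32 (SE 0.056) and Crebbp at 1.81 (SE 0.047). With IR the ratio was called lower for 5 (13.9% of all genes), among them Fbxw7 (-0.60, SE 0.069) and the KLF corepressor Ctbp2 (-0.59, SE 0.083), and higher for 1 (6.28%), Ep300 (0.36, SE 0.071). In the IP 5 were called lower in IR (9.85% of all genes) and none higher. In the Input 1 was called higher and 2 lower (21% and 23.9%), with Ep300 (-0.39, SE 0.039) the most changed. Fbxw7, Crebbp and Ctbp2 were the 3 called higher in the Ctrl IP, and all were called lower in the change with IR. The latter also held for 32% of all 5943 genes called higher in the Ctrl IP. The others among the 5 called lower with IR were not called higher in the Ctrl IP.

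Of 10 regulators upstream of KLF genes, 4 were called higher and 6 lower in the Ctrl IP, where 34.1% and 34.6% of all genes were called. They were led by Mapk7, the kinase that induces Klf2 and Klf4 through MEF2 factors, at 1.76 (SE 0.053) and Smad3, a transducer of TGF-β signals, at 1.74 (SE 0.14), and the lowest was the TGF-β receptor gene Tgfbr2 at -1.45 (SE 0.097). In IR, 4 were called higher and 2 lower (32.1% and 30.4% of all genes), with Smad3 at 1.53 (SE 0.16) and Mapk7 at 1.36 (SE 0.093). The ratio was called higher with IR for 5 (6.28% of all genes), led by Map2k5 (0.72, SE 0.18) and Tgfbr2 (0.67, SE 0.16), and lower for 1 (13.9%), Mapk7 (-0.38, SE 0.11). In the Input none was called higher in IR (21% of all genes) and 5 were called lower (23.9%), with Tgfbr2 (-0.50, SE 0.060) and Map2k5 (-0.32, SE 0.083) first. In the IP 3 were called higher in IR (6.12% of all genes), led by the receptor gene Tgfbr1 (0.61, SE 0.11), and 1 lower (9.85%).

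Of 10 genes described as KLF targets, 9 could be tested in the Input, where 3 were called higher in IR and 1 lower, against 21% and 23.9% of all genes. They were Cdkn1a, an inhibitor of the cell cycle that is also a p53 target (log2 change 1.56, SE 0.028), Lgals3, the lectin galectin-3 (0.44, SE 0.026), the chemokine gene Ccl5 (0.34, SE 0.036) and, lower, the mannose receptor gene Mrc1 (-0.46, SE 0.037). Arg1, the arginase gene of alternatively activated macrophages, had a log2 change of 1.23 (SE 0.60) that did not pass. Its level was very low, at 0.075 to 0.42 CPM in the Ctrl Input and 0.21 to 0.92 in the IR Input. None of the targets was called higher in the IP than in the Input in Ctrl or IR (34.1% and 32.1% of all genes), and 6 were called lower in each (34.6% and 30.4%), with Ccl5 (-1.55, SE 0.057 in Ctrl and -2.04, SE 0.078 in IR) and Lgals3 (-1.32, SE 0.035 and -1.62, SE 0.040) lowest. Their ratio was called lower with IR for 3 (13.9% of all genes), led by Ccl5 (-0.47, SE 0.099), and higher for 1 (6.28%), Mrc1 (0.50, SE 0.12). In the IP 3 were called higher in IR (6.12% of all genes), led by Cdkn1a (1.32, SE 0.054), and none lower.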

How the data were processed

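The authors trimmed reads with Trimmomatic 0.39, mapped them with HISAT 2.1.0 (genome mm10, genes of GENCODE M19) and deposited HTSeq counts per gene for 12 libraries, unnormalized (the strand setting of HTSeq is not given in the sources used here). Reads on no gene stayed out of library sizes. After TMM scaling, edgeR 4.0.16 (R 4.3.3, quasi-likelihood) was run on every gene that reached 10 counts in 3 or more of the libraries compared, with Benjamini-Hochberg adjustment and a threshold of 0.05. IP was compared with Input in Ctrl and in IR, the change between them as an interaction over 12 libraries, and IR with Ctrl within each fraction. Each fit was scaled within its own libraries, so its ratios differ slightly from levels scaled over all 12. Comparisons share libraries. SE is the size of the log2 value divided by the square root of F. Intervals and the limit of 3 counts cover counting error only. Fits were tested on simulated data.

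Gene models and motifs came from GENCODE M21 of the same build, where 99.9% of identifiers matched, and promoters from RefSeq. The members and the gene lists were chosen with earlier results of these data known. Named from each list other than the KLF family were the 2 called genes with the largest absolute log2 value in a comparison, and Sp3, Sp6, Sp9, Ep300, Mapk7, Tgfbr2, Lgals3, Ccl5 and Arg1 were named elsewhere after their values were seen. The study's methods took Input and IP from the same lysate. Libraries with the same number were taken as such pairs, although the titles give only a replicate number. The deviations of these pairs from the group means correlated at only -0.021 to 0.016. The fit with a replicate block changed no call for the members between IP and Input. Alternatives were DESeq2 1.42.0, its size factors, library size alone, other filters, 1 fit of all libraries, the replicate block and leaving out each library.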

Additional observations from a re-analysis of the deposited data

Results flagged for a closer look

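For 7 of the 10 KLF genes the log2 ratio of YTHDF2 IP to Input differed between Ctrl and IR in the interaction test of edgeR over 12 libraries, which is why they are listed here. The difference, IR minus Ctrl, was -0.55 for Klf2, -0.86 for Klf4, -0.64 for Klf6, -0.60 for Klf7, -0.64 for Klf9, -0.52 for Klf10 and -0.42 for Klf13. Every IR pool was below every Ctrl pool in all 7, as in 27.7% of all genes with counts in every library. The genes were chosen with these values known, and 13.9% of all tested genes passed in the same direction.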

How the results depend on the processing

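Of 750 log2 values of the 10 genes under other settings or with 1 library left out, 715 stayed on their side of the threshold, 19 lost their call and 16 gained one, and 0 called values changed sign. Among values not called, signs changed with library size alone for Klf3 (0.24) and Klf16 (0.28) in the change with IR, for Klf3 in Ctrl (-0.10), for Klf3 (0.14) and Klf10 (0.089) in IR and for Klf13 in the Input (-0.0099). The number of members called lower in the Ctrl IP was 2 with library size alone and ranged from 1 to 2 with a library left out, since Klf11 passed without Ctrl IP replicate 2 (-0.87). The number called lower in the IR Input was 0 in the fit of all 12 libraries and ranged from 0 to 1 with a library left out. The number called lower in the IR IP was 3 with library size alone. With the replicate block Klf2 passed in the Input (0.095), and the block changed no other member's call. Between IR and Ctrl the block joined pools of different mice by number alone, so the call of Klf2 under the block has no basis in the design. Without any pairing, Klf2 also passed in the Input in the fit of all 12 libraries (0.18) and with protein-coding nuclear genes only (0.11). The same held without Ctrl Input replicate 1 (0.12), so its lack of a call in the main fit depended on the setting. Over all genes, the fit of 12 libraries called 1500 genes lower in the IR Input (4047 in the main fit) and 2125 higher and 2952 lower in the IR IP (1179 and 1896). Counting error limits Klf11 most, with as few as 37 counts in a library.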

Other observations

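Klf15, Klf17 and Klf1 lay near the limit of detection. Klf15 had 12 counts in Ctrl IP replicate 1 and 16 in IR IP replicate 3, 0 to 3 in the other IP libraries and 0 to 1 in the 6 Input libraries. Klf17 had 6 counts in IR IP replicate 3, 1 in IR IP replicate 2 and 0 in the rest. Klf1 had 14 counts in Ctrl Input replicate 3 and 13 each in IR IP replicates 1 and 3, and 0 to 8 in the other libraries.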
